A study of Mus musculus with 6 samples.

Results

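Transcripts that mark macrophages, neutrophils and dendritic cells were followed in natural killer (NK) cells that had been sorted from mouse spleen. The 36 genes were taken from a named list: 19 of macrophages, 11 of neutrophils and 6 of dendritic cells. Of these, 34 had a probe set that carries their symbol alone, 48 probe sets in all, among 18193 genes and 45101 probe sets of the array. Retnlg and Clec9a had none, so their levels were not analysed here. Where a gene had several probe sets, the brightest on average stands for it.

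Spleen cells came from RAG-/- mice, whose lymphocytes fail to assemble antigen receptors so that mature B and T cells are missing, while their macrophages, neutrophils and dendritic cells remain. Cells positive for NK1.1 were sorted by flow cytometry into a CD27+CD11b- subset, a CD27+CD11b+ subset and, as the most mature stage, a CD27-CD11b+ subset, and the labels name no treatment. The labels give no age for the animals and do not say which RAG gene is missing. Each subset was measured on 2 arrays, which the series describes as independent replicates without saying whether the animals differed, so a p-value here reflects only how far these samples spread, which may be technical. Values are log2 expression, means are given ± SD over n = 2 arrays, and array medians lay between 5.26 and 5.36. With so few arrays the precision is limited.

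The sorted cells carried the transcripts of NK cells. All 12 NK cell genes on the list lay above 6.50, the level reached by genes of other tissues (the 95th percentile of 54 such genes), and their mean over the list ran from 11.24 to 12.08 across the arrays. Of 11 B and T cell genes 3 lay above that level in at least 1 subset, with array means of 5.45 to 6.19. One label conflict bears on the groups: replicate 1 of CD27-CD11b+ carries a gate of CD27+CD11b- cells in its protocol field while its title names the CD27-CD11b+ subset. On that array Cd27 read 6.96 and Itgam 9.93, near the 6.47 and 9.44 of replicate 2, whereas the CD27+ subsets had Cd27 at 8.03 to 8.92. The title was followed here.

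Another division ran across the subsets and has to be known before the values are read. A group of 3 probe sets without a gene name averaged 12.57 to 12.81 on replicate 2 of both CD27+ subsets and replicate 1 of CD27-CD11b+, and 4.33 to 4.47 on the other 3 arrays. The first 3 are called the marked arrays and the rest the unmarked ones. Each subset has 1 array of either kind. The labels give no batch or date that matches this division, and it was read from the data.

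Macrophages of the splenic red pulp engulf old red blood cells, break down their haem and pass the iron back to the blood. Neutrophils are short-lived phagocytes that build their granules in order as they mature: azurophil granules first, with myeloperoxidase and elastase, and specific granules later, with lactoferrin and lipocalin. Dendritic cells present antigen, and their subsets are told apart by lineage factors such as Batf3 and Zbtb46 and by surface receptors such as Xcr1 and Siglech. CD11b, the product of Itgam and the marker used in the sort, is itself carried by macrophages and neutrophils as well as by maturing NK cells.

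Myeloid genes are commonly driven by PU.1, an ETS family factor, and by C/EBP factors, so the 250 bases before the start of transcription are shown for a few genes whose data contrast: C1qb and C1qc (macrophage genes) and Ngp and Ltf (specific granule genes) differed widely between the 2 arrays of a subset, while Elane and Mpo (azurophil granule genes) differed by 0.51 at most. Sequences are from RefSeq, mouse build GRCm38.p6, and capitals mark matches to GAGGAA or TTNNGNAA on either strand.
C1qb, chr4:136886201-136886450, reverse strand: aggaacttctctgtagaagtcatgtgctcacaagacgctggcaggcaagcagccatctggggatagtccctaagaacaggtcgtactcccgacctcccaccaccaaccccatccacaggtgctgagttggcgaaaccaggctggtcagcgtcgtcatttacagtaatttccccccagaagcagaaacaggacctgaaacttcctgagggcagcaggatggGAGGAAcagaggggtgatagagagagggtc
C1qc, chr4:136892915-136893164, reverse strand: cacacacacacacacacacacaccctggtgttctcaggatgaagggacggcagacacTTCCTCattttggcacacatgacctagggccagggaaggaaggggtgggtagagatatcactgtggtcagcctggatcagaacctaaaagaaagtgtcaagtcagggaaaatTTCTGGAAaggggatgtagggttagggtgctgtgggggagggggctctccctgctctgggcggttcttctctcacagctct
Ngp, chr9:110419558-110419807, forward strand: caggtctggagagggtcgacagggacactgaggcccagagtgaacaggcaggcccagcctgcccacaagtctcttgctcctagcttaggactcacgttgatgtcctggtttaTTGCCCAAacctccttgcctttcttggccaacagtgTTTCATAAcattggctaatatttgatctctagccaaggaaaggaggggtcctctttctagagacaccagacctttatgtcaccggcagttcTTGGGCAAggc
Ltf, chr9:111019042-111019291, forward strand: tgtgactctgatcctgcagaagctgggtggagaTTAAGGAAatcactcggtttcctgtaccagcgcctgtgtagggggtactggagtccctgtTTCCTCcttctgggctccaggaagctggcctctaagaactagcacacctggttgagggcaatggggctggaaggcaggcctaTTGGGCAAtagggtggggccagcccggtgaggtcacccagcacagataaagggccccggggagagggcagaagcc
Elane, chr10:79886062-79886311, forward strand: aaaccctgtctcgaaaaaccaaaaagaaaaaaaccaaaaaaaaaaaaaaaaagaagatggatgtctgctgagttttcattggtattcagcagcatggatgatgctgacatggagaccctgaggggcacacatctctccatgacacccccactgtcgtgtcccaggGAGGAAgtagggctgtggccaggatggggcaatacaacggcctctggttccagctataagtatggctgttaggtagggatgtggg
Mpo, chr11:87793534-87793783, forward strand: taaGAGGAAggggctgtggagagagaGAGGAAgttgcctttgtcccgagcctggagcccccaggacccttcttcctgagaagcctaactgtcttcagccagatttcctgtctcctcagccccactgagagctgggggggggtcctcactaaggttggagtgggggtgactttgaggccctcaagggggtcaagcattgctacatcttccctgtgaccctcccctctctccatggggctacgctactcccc
The motifs searched were GAGGAA, a PU.1 core, and TTNNGNAA, a C/EBP core, on both strands. Windows were found for 29 of the 36 genes, 30 windows in all, and these include Retnlg and Clec9a, whose levels were not analysed. GAGGAA was in 7 of 13 macrophage windows, 7 of 11 neutrophil windows and 1 of 6 dendritic cell windows, against 23.3% of all 32851 windows of that length. TTNNGNAA was in 8, 6 and 1 of the same windows, against 36.8% of all. C1qb, Elane and Mpo hold the PU.1 core without a match to the C/EBP core, so this content is found on both sides of the contrast. Ngp holds 3 matches to the C/EBP core without the PU.1 core, and C1qc and Ltf hold both. These are matches of letters and do not show a bound site.

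The plainest pattern among the myeloid genes was between the 2 arrays of each subset. Of the 34 measured genes, 27 were higher on the marked than on the unmarked array in all 3 subsets, where 20.7% of all genes were. The lowest of the 3 marked arrays lay above the highest of the 3 unmarked arrays for 23 of the 34, against 8.29% of all genes. By the probe set that stands for each gene, Adgre1, Marco, Cd5l, Slc40a1, Cd14 and S100a9 differed by over 1 in every subset. These are 6 of 34, against 0.231% of all genes. On the unmarked arrays Marco, Cd5l and Cd14 read at most 5.99, 6.29 and 5.86, below the level set by genes of other tissues. The median difference of the 19 macrophage genes was 1.61 in the CD27+CD11b- subset, 1.08 in the double positive subset and 0.87 in CD27-CD11b+, and that of the 10 neutrophil genes was 1.38, 0.83 and 0.71. The 5 dendritic cell genes had medians of -0.01, 0.20 and 0.35, and all genes of the array had medians of -0.04, -0.04 and 0.11. With 1 array on each side these differences have no replicate and no test. The genes were also chosen with earlier results of these data known, which limits what the shares of all genes can show. In the CD27+ subsets alone, leaving out the subset with the doubtful sort description, 28 of the 34 were higher on both marked arrays, against 28.1% of all genes. Fewer cells of a type and less RNA per cell cannot be told apart in sorted bulk samples.

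**Figure D1:**
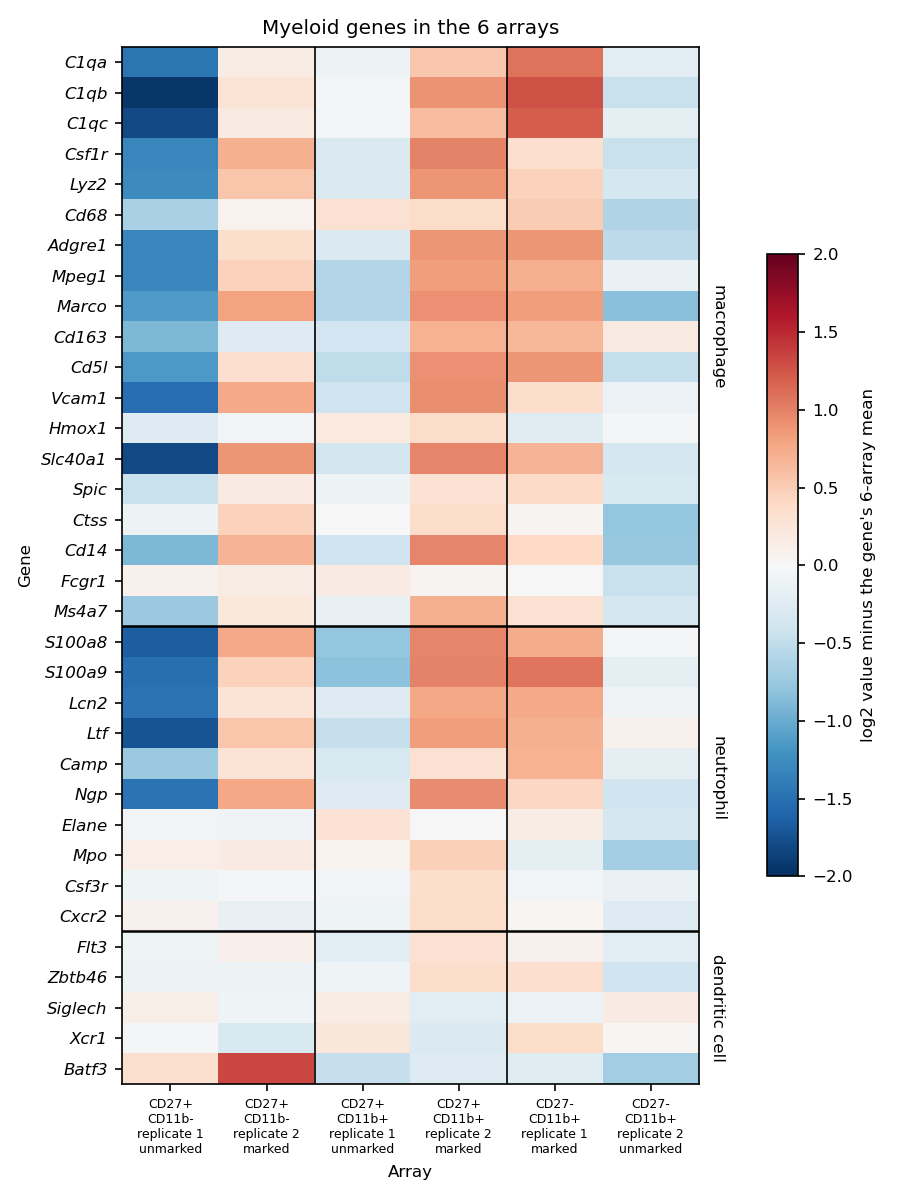
Each row is 1 of the 34 measured genes and each column 1 of the 6 arrays. Colour is the log2 value minus the gene's own mean over the arrays, with macrophage, neutrophil and dendritic cell genes set apart by black lines. CD27+CD11b- replicate 1 is the bluest column for most macrophage and granule genes, the 3 marked arrays are mostly red for them, and the rows of Elane, Csf3r and Cxcr2 stay pale.

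The 3 chains of C1q, the first component of the classical complement pathway, had like values across the arrays. C1qb read 4.59 and 6.81 in CD27+CD11b- (replicates 1 and 2, the order used throughout), 6.50 and 7.44 in CD27+CD11b+, and 7.81 and 6.09 in CD27-CD11b+. C1qa read 5.29 and 6.90, 6.66 and 7.30, and 7.84 and 6.53 in the same order. C1qc read 4.98 and 6.96, 6.74 and 7.40, and 7.99 and 6.59. For all 3 chains the marked array was higher in every subset, by 0.64 to 2.22. CD27-CD11b+ replicate 1 was the highest array of the 6 for each chain, and CD27+CD11b- replicate 1 the lowest. The ranges of the subsets overlapped, since CD27+CD11b- replicate 2 lay above CD27-CD11b+ replicate 2 and above CD27+CD11b+ replicate 1. The 2 other probe sets of C1qb had the same order of the arrays within each subset, with differences of 1.34 to 2.70 and of 1.44 to 2.11.

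Surface receptors of macrophages differed in size but seldom in direction. Csf1r, the receptor for the growth factor that sustains macrophages, read 8.41 and 10.44 in CD27+CD11b-, 9.44 and 10.72 in CD27+CD11b+, and 10.05 and 9.27 in CD27-CD11b+. The marked array was thus 4.07-fold, 2.43-fold and 1.72-fold higher. The 3 probe sets of Csf1r did not give the same size: another differed by 1.05 to 1.80 between the arrays, and the last, between 6.74 and 7.18 on all arrays, by 0.11 to 0.24. Marco, a scavenger receptor of marginal zone macrophages, read 5.44 and 7.39, 5.99 and 7.50, and 7.42 and 5.75, so that all 3 marked arrays lay above all 3 unmarked ones. Its other probe set stayed between 3.99 and 4.48. Adgre1, an adhesion receptor widely used as a macrophage marker, was higher on the marked array by 1.66, 1.17 and 1.40 in the order of the subsets. Cd14, a co-receptor for bacterial lipopolysaccharide, was higher by 1.58, 1.38 and 1.16, and Ms4a7, a membrane protein of macrophages, by 0.96, 0.87 and 0.65. Averaged over all arrays, Cd14 (6.26) and Ms4a7 (6.10) lay below the level set by genes of other tissues. The other Ms4a7 probe set, between 3.04 and 3.50, differed by -0.27 to 0.46. Fcgr1, the high-affinity receptor for immunoglobulin G, was not higher on the marked array in every subset by its brighter probe set. That probe set read 5.49 and 5.56, 5.58 and 5.46, and 5.41 and 4.97, below the level set by genes of other tissues throughout. The dimmer Fcgr1 probe set, between 3.51 and 4.52, was higher on the marked array in every subset, by 0.18 to 1.01.

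Cd163, the receptor that takes up haemoglobin bound to haptoglobin, had outer subsets whose arrays did not overlap. It read 5.32 and 5.96 in CD27+CD11b-, 5.84 and 6.91 in CD27+CD11b+, and 6.89 and 6.40 in CD27-CD11b+. Both arrays of CD27-CD11b+ thus lay above both of CD27+CD11b-, while CD27+CD11b+ overlapped with each. The difference between these outer subsets was 1.01 (SE 0.36), with limma adjusted p = 0.188, and the means were 5.64 ± 0.45 and 6.65 ± 0.34. The first of these means was below the level set by genes of other tissues, so no fold change is given.

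Iron handling genes of the red pulp split. Slc40a1, the iron exporter ferroportin, read 6.61 and 9.30 in CD27+CD11b-, 8.05 and 9.40 in CD27+CD11b+, and 9.10 and 8.07 in CD27-CD11b+, with the marked array 6.45-fold, 2.54-fold and 2.04-fold higher. Among the probe sets that stand for the 34 genes, none had a difference as large as the 2.69 of Slc40a1 in CD27+CD11b-, and another probe set of C1qb reached 2.70 there. Hmox1, the haem-degrading enzyme haem oxygenase 1, did not share it. Hmox1 read 5.71 and 5.91, 6.16 and 6.34, and 5.73 and 5.95, below the level set by genes of other tissues on all arrays. Hmox1 was instead higher on both CD27+CD11b+ arrays than on the 4 others, by 0.44 (SE 0.16, limma adjusted p = 1.0) over CD27+CD11b-, and CD27-CD11b+ differed from it by -0.41 (SE 0.16, limma adjusted p = 0.410). Of all genes, 14.7% were higher without overlap in CD27+CD11b+ than in CD27+CD11b-, and 17.1% lower without overlap in CD27-CD11b+ than in CD27+CD11b+. Spic, the transcription factor on which red pulp macrophages depend, differed by 0.39 to 0.69 between the arrays at values of 4.99 to 5.83. Its other probe set differed by 0.85 to 1.53. Vcam1, an adhesion molecule, was higher on the marked array by 2.27, 1.33 and 0.46, and Cd5l, a secreted scavenger family protein of macrophages, by 1.49, 1.42 and 1.36. One of the 2 other Vcam1 probe sets turned direction in a subset, with differences of -0.25 to 0.41.

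The 4 lysosome and phagosome genes among the 34 were higher on the marked array in every subset. Lyz2, the lysozyme of macrophages and neutrophils, read 6.80 and 8.63, 7.79 and 8.96, and 8.54 and 7.73. Mpeg1, the pore-forming protein perforin-2, read 6.73 and 8.49, 7.45 and 8.87, and 8.77 and 7.89. All marked arrays were above all unmarked ones for both genes. Cd68, a lysosomal glycoprotein, read 6.44 and 7.17, 7.40 and 7.46, and 7.60 and 6.49, so that in CD27+CD11b+ the arrays differed by only 0.06. Ctss, the protease cathepsin S, which lymphocytes also make, read 11.62 and 12.17, 11.70 and 12.07, and 11.77 and 10.95, with differences of 0.37 to 0.83 between arrays, and its probe set was bright on all 6.

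**Figure D2:**
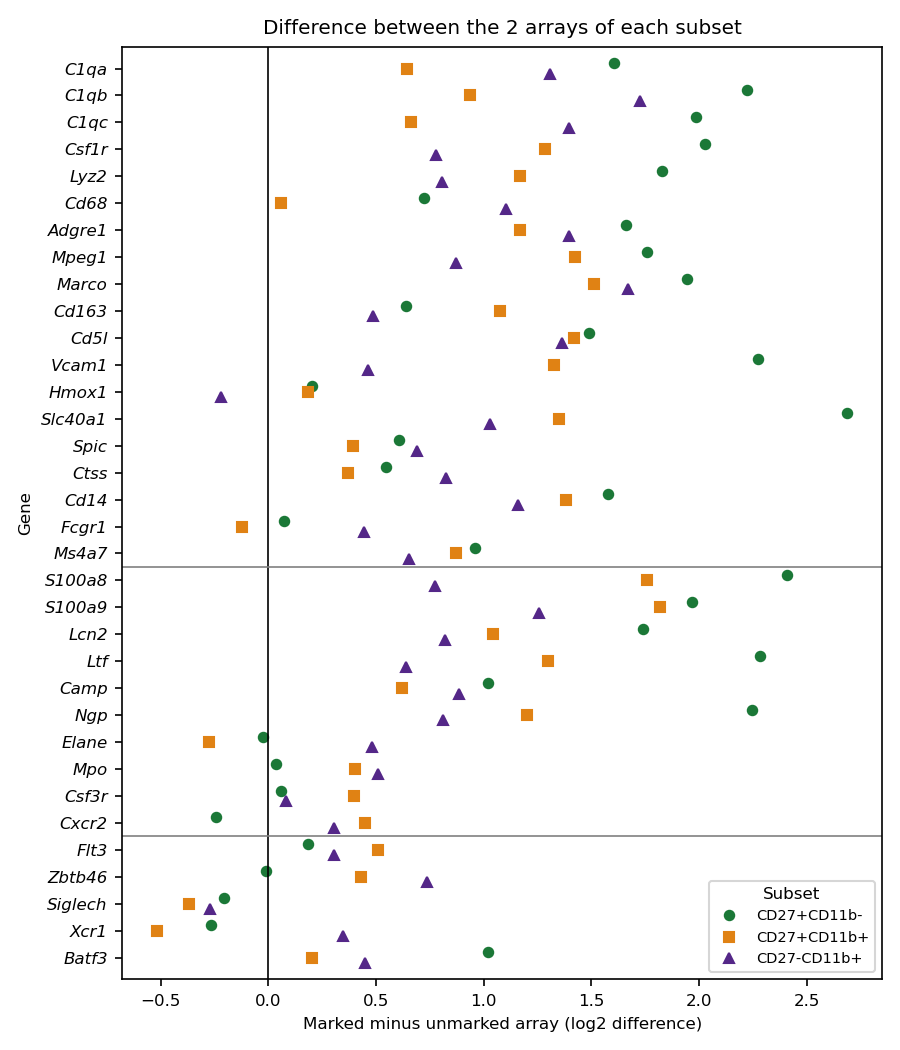
For each of the 34 genes, points give the log2 difference between the marked and the unmarked array of a subset (green circles CD27+CD11b-, orange squares CD27+CD11b+, purple triangles CD27-CD11b+), 1 array on each side. Points right of 0 are higher on the marked array. The green circles lie farthest right for Slc40a1, S100a8 and Ltf, while Elane, Mpo, Csf3r and Cxcr2 stay between -0.28 and 0.51.

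The neutrophil genes fell into 6 with large differences and 4 with small ones, and 5 of the 6 but 0 of the 4 lay above the level set by genes of other tissues. S100a8 and S100a9, which together form the cytosolic protein calprotectin, and Lcn2, Ltf, Camp and Ngp, proteins of specific granules, were all higher on the marked array in every subset, by 0.62 to 2.41. S100a8 read 6.96 and 9.37, 7.84 and 9.60, and 9.35 and 8.58. S100a9 read 6.21 and 8.18, 6.89 and 8.71, and 8.78 and 7.52. Their marked arrays lay close together and their unmarked arrays were spread, with CD27+CD11b- replicate 1 lowest. Ltf, lactoferrin, read 6.13 and 8.41, 7.39 and 8.69, and 8.57 and 7.93. Ngp, a granule protein related to the cathelicidins, read 7.11 and 9.36, 8.32 and 9.52, and 8.99 and 8.18. Its marked array was 4.75-fold, 2.30-fold and 1.75-fold higher in the order of the subsets. Lcn2, the iron-trapping lipocalin 2, differed by 1.74, 1.04 and 0.82 and Camp, the cathelicidin, by 1.02, 0.62 and 0.88.

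The azurophil granule genes and the receptors of neutrophils were dim. Elane, neutrophil elastase, read 5.02 and 5.0, 5.36 and 5.09, and 5.23 and 4.74. Mpo, myeloperoxidase, read 5.28 and 5.32, 5.23 and 5.64, and 4.98 and 4.48. Both stayed below the level set by genes of other tissues on all arrays, as did Csf3r, the receptor for granulocyte colony-stimulating factor, at 5.0 to 5.48 and Cxcr2, a chemokine receptor of mature neutrophils, at 4.44 to 5.07. Across these 4 genes the marked array differed by -0.28 to 0.51, and 2 of the 4, Mpo and Csf3r, were higher on it in every subset. Whether their probe sets can register neutrophil RNA at low amounts was not tested.

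The dendritic cell genes were dim. Flt3, a growth factor receptor of their precursors, read 6.55 and 6.73, 6.43 and 6.94, and 6.73 and 6.42, close to the level of genes of other tissues. Zbtb46, a factor of conventional dendritic cells, lay between 5.94 and 6.68 by its brightest probe set. Its other probe sets lay between 3.48 and 6.28, with differences of -0.06 to 0.65 between the arrays of a subset. Siglech, a lectin of plasmacytoid dendritic cells, lay between 5.39 and 5.76. Xcr1, a chemokine receptor of cross-presenting dendritic cells, lay between 3.80 and 4.47. Siglech was lower on the marked array in every subset, with differences of -0.37 to -0.21, and was the only gene of the 34 with that direction throughout, against 13.9% of all genes.

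Batf3, the factor needed by cross-presenting dendritic cells and also made by activated lymphocytes, had the largest differences between subsets among the 5 dendritic cell genes. It read 6.56 and 7.58 in CD27+CD11b-, 5.78 and 5.99 in CD27+CD11b+, and 6.01 and 5.56 in CD27-CD11b+. Both CD27+CD11b- arrays lay above the 4 others. Of all genes, 15.6% were lower without overlap in CD27+CD11b+ than in CD27+CD11b-, and 24.3% were so in CD27-CD11b+. CD27+CD11b+ differed from CD27+CD11b- by -1.19 (SE 0.32, limma adjusted p = 0.692) and CD27-CD11b+ by -1.29 (SE 0.32, limma adjusted p = 0.0725), and neither passed. The outer difference was -1.57 within the marked and -1.0 within the unmarked arrays. With the division as a block in the fit its adjusted p was 0.00855, and without CD27+CD11b- replicate 1 it was 0.0136 (difference -1.80). That last fit has 1 array of CD27+CD11b-, which is assumed to vary like the other groups.

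**Figure D3:**
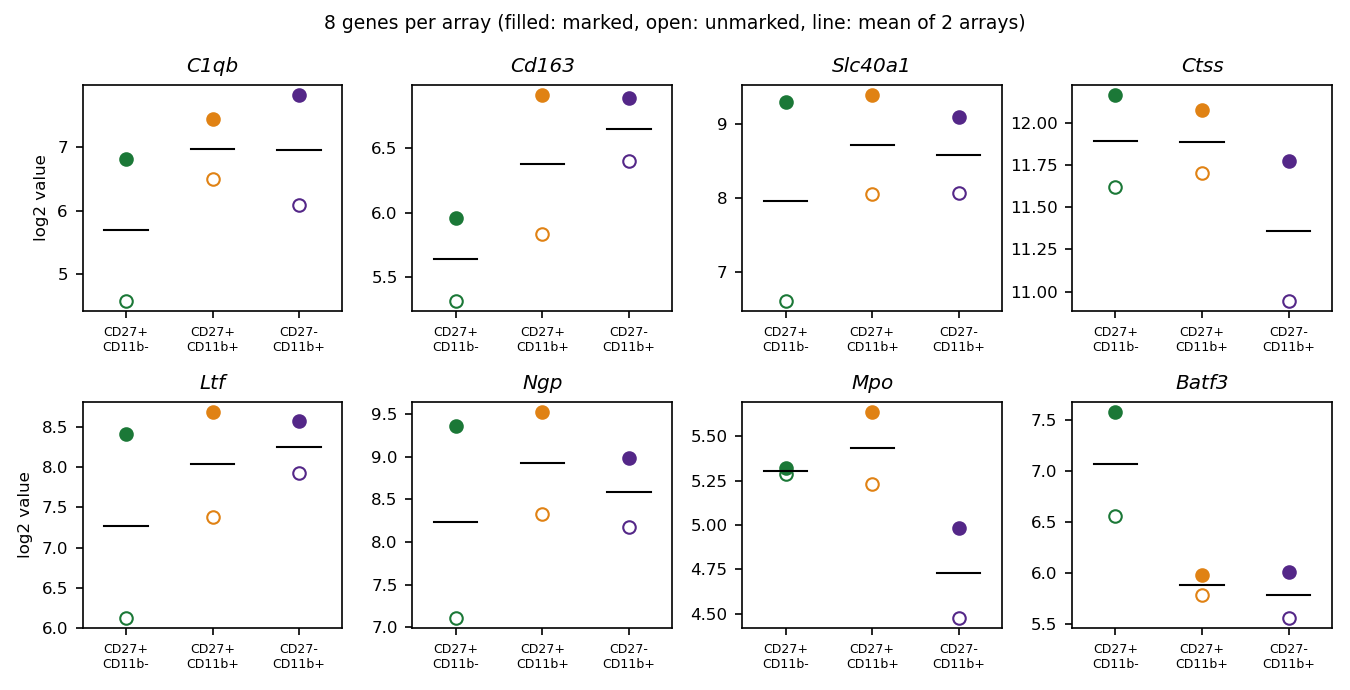
Points are the log2 values of 8 genes on the 6 arrays by subset, filled for marked and open for unmarked arrays, with a line at the mean of the 2 arrays, and each panel has its own axis. C1qb, Slc40a1, Ltf and Ngp show filled points above open ones in every subset, while Batf3 is highest in CD27+CD11b- and Mpo, under 6.50 throughout, is lowest in CD27-CD11b+.

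The step from CD27+CD11b- to CD27+CD11b+ was tested for myeloid transcripts that differ with the gain of CD11b. At an adjusted p under 0.05 in limma 0 of the 34 genes passed, where 0.121% of all genes did. An unadjusted p under 0.05 was reached by Hmox1 and Batf3, 2 of 34 against 3.79% of all genes. The macrophage genes had a median difference of 0.63, with 17 of 19 positive, the neutrophil genes of 0.39, with 10 of 10 positive, and the dendritic cell genes of 0.04, while the median of all genes was -0.01. Csf1r for example had means of 9.42 ± 1.43 and 10.08 ± 0.91, and Ltf of 7.27 ± 1.61 and 8.04 ± 0.92, so the spread within a subset was larger than the step between them. Arrays that did not overlap were found for Cd68, Hmox1, Elane and Zbtb46 upward (14.7% of all genes) and for Batf3 downward (15.6%). The macrophage median was 0.33 within the marked and 0.72 within the unmarked arrays. Leaving out CD27+CD11b- replicate 1, the lowest array for 17 of the 19 macrophage genes, gave -0.07, and leaving out replicate 2 of that subset gave 1.36. Leaving out replicate 1 or 2 of CD27+CD11b+ gave 1.24 and 0.08. The neutrophil median over the same 4 omissions was -0.15, 1.16, 0.92 and -0.02.

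The step from CD27+CD11b+ to CD27-CD11b+ is the loss of CD27. Again 0 of 34 genes passed in limma, against 0.297% of all genes, and an unadjusted p under 0.05 was reached by Hmox1 and Mpo, 2 of 34 against 11.1%. Mpo had means of 5.44 ± 0.28 and 4.73 ± 0.36, a difference of -0.71 (SE 0.21, limma adjusted p = 0.273), both below the level set by genes of other tissues. The macrophage genes had a median of -0.15 with 4 of 19 positive, the neutrophil genes of -0.07 with 5 of 10 positive, and the dendritic cell genes of -0.10, beside 0.02 for all genes. Arrays did not overlap for Hmox1, Fcgr1 and Mpo, all lower in CD27-CD11b+ (17.1% of all genes), and for 0 genes upward (22.8%). Leaving out replicate 1 or 2 of CD27+CD11b+ turned the macrophage median to -0.70 and 0.45, and the neutrophil median to -0.46 and 0.41. Leaving out replicate 1 of CD27-CD11b+, the array of the doubtful sort description, gave -0.65 and -0.30, and replicate 2 gave 0.30 and 0.28. In each of these fits 0 of 34 genes passed.

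The least and the most mature subset, CD27+CD11b- and CD27-CD11b+, were set against each other last. Of all genes 3.39% passed (2.24% higher and 1.15% lower in CD27-CD11b+) and of the 34 myeloid genes 0 did, while an unadjusted p under 0.05 was reached by Cd163, Mpo and Batf3, 3 of 34 against 18.9%. The macrophage median was 0.42 with 16 of 19 positive, the neutrophil median 0.42 with 6 of 10 positive and the dendritic cell median 0.01, beside -0.01 for all genes. Cd163 and Xcr1 did not overlap upward (26.9% of all genes) and Fcgr1, Mpo and Batf3 downward (24.3%). The C1q chains had the largest positive differences, 1.09 (SE 0.56) for C1qa, 1.25 (SE 0.76) for C1qb and 1.32 (SE 0.65) for C1qc, with limma adjusted p = 0.345, 0.427 and 0.319. In CD27+CD11b- the chains had means of 6.10 (C1qa), 5.70 (C1qb) and 5.97 (C1qc), below the level set by genes of other tissues. Within the marked arrays their differences were 0.94, 1.0 and 1.03, and within the unmarked arrays 1.24, 1.5 and 1.61. Csf1r by contrast turned direction, with -0.38 within the marked and 0.86 within the unmarked arrays, as did Slc40a1, with -0.20 and 1.46. Leaving out replicate 1 or 2 of CD27+CD11b- gave macrophage medians of -0.17 and 1.33 and neutrophil medians of -0.04 and 1.24. Leaving out replicate 1 of CD27-CD11b+ gave -0.04 and -0.0038, and replicate 2 gave 0.82 and 0.84.

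With the marked and unmarked arrays as a block the differences stay as they are and only their spread changes. In that fit 0 of 34 genes passed in the first comparison (0.319% of all genes) and 0 in the second (1.63%), and 9 passed in the outer one (8.13%). The 8 that were higher in CD27-CD11b+ were C1qa, C1qb, C1qc, Adgre1, Cd163, Cd5l, S100a9 and Lcn2 (5.3% of all genes), with adjusted p from 0.0122 for Cd163 to 0.0459 for Adgre1, and Batf3 alone was lower (2.83%). Of the 8 genes that were higher, all but Adgre1 and S100a9 had CD27+CD11b- means below the level set by genes of other tissues. The Lcn2 means were below it in every subset. The block was read from these data and the genes were chosen with results known, so the adjusted p-values of this fit may be too small. Over 45037 probe sets, the marked minus unmarked differences of CD27-CD11b+ correlated at only 0.075 and -0.060 with those of the CD27+ subsets. The difference between the second and the first step was also tested in limma: 0 of 34 genes passed, where 0.0055% of all genes (1 of 18193) did, and Hmox1 alone had an unadjusted p under 0.05 (3.01% of all genes).

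**Figure D4:**
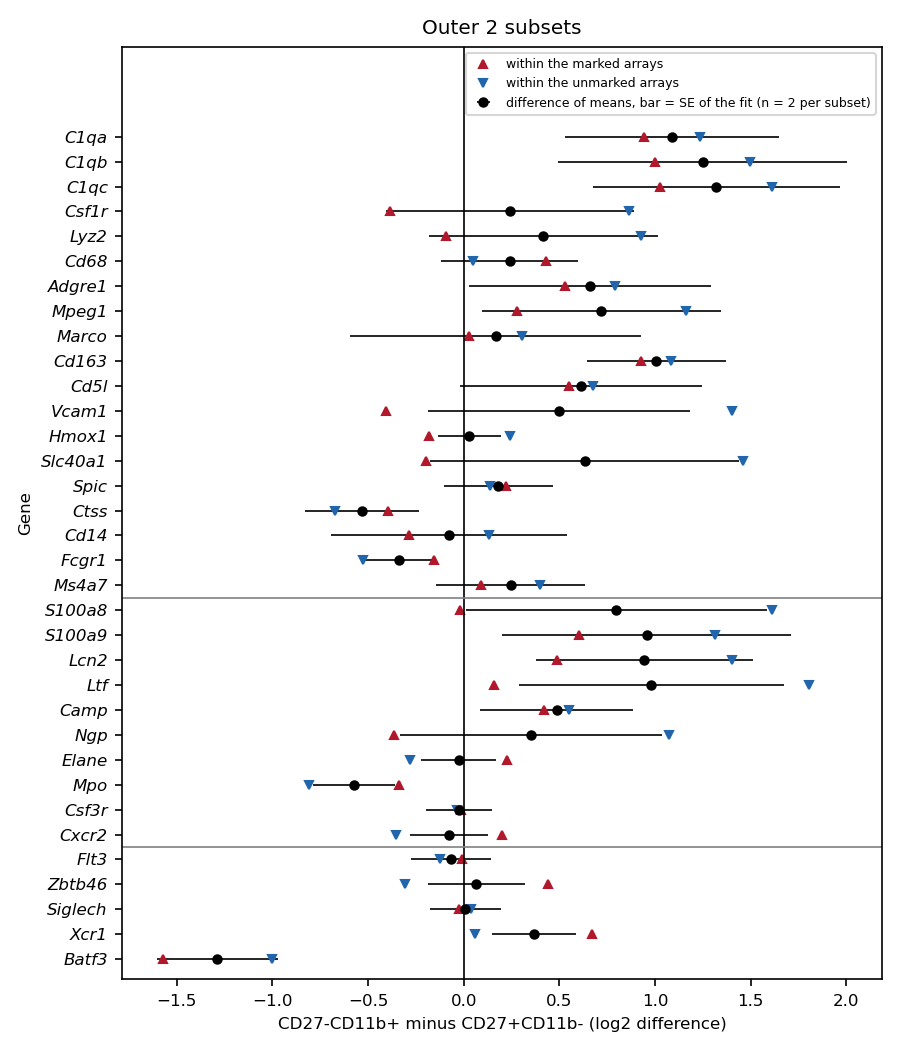
For each of the 34 genes the black point is the log2 difference CD27-CD11b+ minus CD27+CD11b- with the standard error of the limma fit (n = 2 arrays per subset), the red triangle the difference within the marked arrays and the blue triangle that within the unmarked arrays. Red and blue lie on the same side for C1qa, C1qb, C1qc, Cd163 and Batf3 and on opposite sides of 0 for Csf1r, Slc40a1, Vcam1 and Ngp.

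Further genes of the same cell types were set against the same division of arrays. Their lists too were chosen with earlier results of these data known, so they are no independent check. Of 37 further macrophage and monocyte genes 29 were higher on the marked array in all 3 subsets, of 19 further neutrophil genes 13 and of 19 further dendritic cell genes 8, beside 20.7% of all genes. Their median differences were 0.34, 0.22 and 0.35 for macrophages in the order of the subsets, 0.51, 0.22 and 0.41 for neutrophils, and 0.17, 0.32 and 0.33 for dendritic cells. Chil3, a chitinase-like protein of neutrophils and macrophages, read 5.12 and 8.20, 6.82 and 8.24, and 7.92 and 7.51. Fpr2, a formyl peptide receptor of phagocytes, read 5.04 and 6.98, 5.51 and 7.29, and 7.29 and 6.09. Pglyrp1, a peptidoglycan-binding granule protein, read 7.31 and 7.82, 8.82 and 7.97, and 8.47 and 8.01, and so went the other way in CD27+CD11b+. The bright lysosomal genes had small differences: Ctsb differed by up to 0.47 and Grn by up to 0.58, and Ctsd was lower on the marked array of both CD27+ subsets, at 11.52 and 11.09 in CD27+CD11b- and 11.94 and 11.53 in CD27+CD11b+, and higher by 0.22 in CD27-CD11b+.

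Of these 75 further genes 0 passed in the first and second comparison, where 0.121% and 0.297% of all genes did, and 1 in the outer one, where 3.39% did. Irf8, an interferon regulatory factor of dendritic cells and monocytes that NK cells also use, rose from 11.88 to 13.00, a difference of 1.12 (SE 0.22, limma adjusted p = 0.0385). Its arrays read 11.64 and 12.12 in CD27+CD11b- and 13.06 and 12.93 in CD27-CD11b+. They did not overlap, as was so upward for 26.9% of all genes. Of the dendritic cell genes that were brightest beside it, Tcf4 lay between 7.74 and 8.74 and Cox6a2 between 6.96 and 7.91.

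Genes of red blood cell precursors were mixed. Alas2, the first enzyme of haem synthesis in red cells, read 7.30 and 5.77, 7.91 and 5.87, and 6.70 and 8.36, and Slc4a1, the anion exchanger of the red cell membrane, 7.14 and 6.45, 6.70 and 5.85, and 6.86 and 8.07. Both were lower on the marked array in every subset. Of 7 measured erythroid genes 4 did so, with Hba-a1 and Klf1, against 13.9% of all genes. Epb42, a membrane skeleton protein, was instead higher on it in every subset, by 0.03 to 0.14, while Epor was higher by 0.29 in CD27-CD11b+ and Tfrc by 0.15 in CD27+CD11b-, and each had the other direction elsewhere. The list averaged 5.76 to 5.96 on the marked and 6.30 to 6.39 on the unmarked arrays. The probe set of Hba-a1, a globin gene, stayed between 3.90 and 4.40. The B and T cell list averaged 5.45 to 5.87 on the marked and 5.47 to 6.19 on the unmarked arrays, and the NK cell list 11.24 to 12.08 and 11.32 to 12.00. The macrophage list averaged 7.63 to 7.96 and 6.22 to 7.06, and the neutrophil list 6.92 to 7.22 and 5.77 to 6.40. What part cell purity, blood content or handling had in these differences was not tested.

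**Figure D5:**
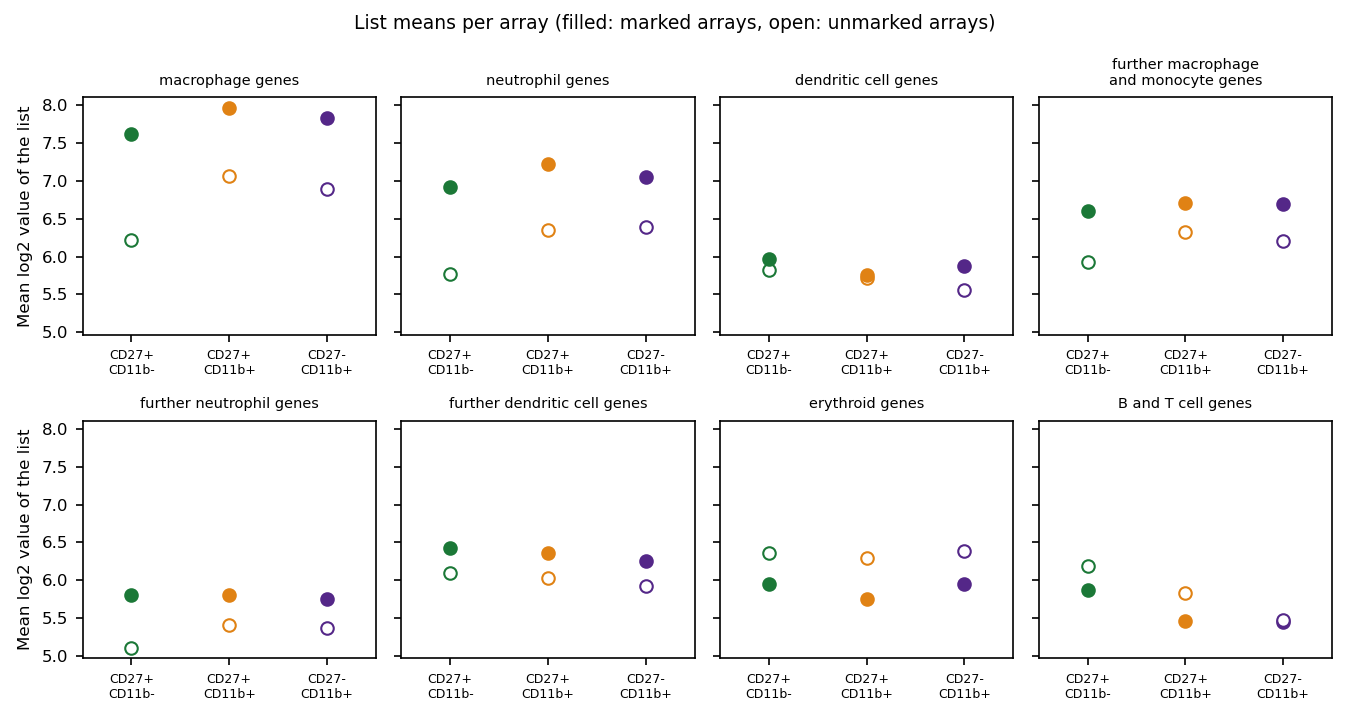
Each panel gives the mean log2 value of 1 gene list per array by subset, filled for marked and open for unmarked arrays, on 1 shared axis. Filled points lie above open ones for the macrophage and neutrophil lists in all 3 subsets (6.22 to 7.96 for the 19 macrophage genes) and below them for the erythroid list (5.76 to 6.39).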

How the data were processed

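The 6 Affymetrix whole-genome mouse arrays of the series were used. The deposited table holds log2 values from RMA (per the submitters' processing notes), with its version and chip definition not given in the sources used here. The log2 scale was read from the range of the deposited values. RMA equalises arrays and compresses differences of dim genes. Controls (64 probe sets) were left out. The array annotation gave 34945 probe sets with 1 symbol, 932 with several and 9160 with none, and 34741 of the first were found in RefSeq, with 0 symbols updated.

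Samples were grouped by title. limma 3.58.1 in R 4.3.3 fitted 1 mean per subset to 18193 genes over 6 arrays (3 residual and 4.93 prior degrees of freedom), with Benjamini-Hochberg adjustment over all genes and calls at an adjusted p under 0.05. The fit was tested on simulated data. Marked and unmarked arrays were told apart by unnamed probe sets that differed by over 6 log2 units within every subset. Named genes were all members, and of the further lists those called in a comparison and the 3 with the highest mean. The members and lists were chosen with earlier results of these data known. Alternatives concerned blocks, probe sets, filters, scaling and arrays left out.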

Additional observations from a re-analysis of the deposited data

How the results depend on the processing

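With the division block 58, 296 and 1480 of all genes passed in the first, second and outer comparison (22, 54 and 617 without it), and 9 of the 34 myeloid genes in the outer one. With 32 added to the linear values, 0, 11 and 367 of all genes passed. The mean of all probe sets gave 11 and a fit of only the compared subsets 12 in the first, and testing all probe sets separately 33 in the second. For the difference between the steps (1 gene), 2 passed with the division block, above the background level only, after quantile normalization again or with an intensity trend, and 0 with 32 added, with all probe sets tested separately or with the replicate block. Above the background level only, the dendritic cell median was -0.57 in the first and -0.68 in the outer comparison. It then rests on 2 genes: Batf3 differed by -1.19 and -1.29, and Flt3 by 0.04 and -0.07. Batf3 was kept through its CD27+CD11b- mean of 7.07, with means of 5.88 in CD27+CD11b+ and 5.78 in CD27-CD11b+. The median difference between the arrays of CD27+CD11b- was 1.09 (macrophage) and 0.91 (neutrophil) with 32 added, 2.25 (neutrophil) and 0.60 (dendritic) above background only, and 0.19 (dendritic) for the mean of probe sets; for neutrophil genes in CD27+CD11b+ it was 1.30 above background only. The background filter left 15 macrophage, 5 neutrophil and 2 dendritic cell genes, so the medians above background are those of fewer genes. The cause of the other shifts was not tested.

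Leaving out each array in turn gave 4 to 30, 6 to 53 and 84 to 635 calls among all genes in the 3 comparisons and 0 to 0 for the difference between the steps. The array left alone in its subset is assumed to vary like the other groups. Myeloid calls were 0 to 1 in the outer comparison (Batf3, without CD27+CD11b- replicate 1) and 0 in the others. Macrophage medians ran from -0.07 to 1.36, -0.70 to 0.45 and -0.17 to 1.33, neutrophil medians from -0.15 to 1.16, -0.46 to 0.41 and -0.041 to 1.24, and dendritic cell medians from -0.12 to 0.057, -0.26 to 0.12 and -0.22 to 0.085. The replicate block gave 19, 58 and 760 calls among all genes and 0 among myeloid genes. The deviations of replicate 2 from replicate 1 correlated at 0.611 between the CD27+ subsets and at -0.075 and 0.060 with CD27-CD11b+. The numbers were therefore not taken to pair samples. Taken as marked minus unmarked, the same differences correlated at 0.611 between the CD27+ subsets and at 0.075 and -0.060 with CD27-CD11b+. Over 45037 probe sets the division thus joined CD27-CD11b+ to the CD27+ subsets no more closely than the replicate numbers did. The 27 genes higher on the marked array in every subset numbered 26 to 29 under the other settings that keep all 34, and 22 of the 22 above background where dim genes were left out; leaving out both CD27-CD11b+ arrays (28) was chosen after seeing the data. Since 0 of the 34 genes passed at the start, no call could be lost. Of 1596 values of single myeloid genes under the alternatives, 10 newly passed the test and 140 changed sign without passing it.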
